A study of Mus musculus with 4 samples.

Results

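The anaphase-promoting complex is a ubiquitin ligase, and 10 genes of it and its control were described among the 20197 genes of the table. They were chosen by name but with earlier results of these data known, as were the lists of related genes below. They include ubiquitin-conjugating enzymes (E2s, *Ube2c* and *Ube2s*), coactivators (*Cdc20* and *Fzr1*) and an inhibitor (*Fbxo5*). The others are the securin and separase pair (*Pttg1* and *Espl1*) and core subunits (*Cdc27*, *Cdc16* and *Anapc1*). All 10 were in the table, with 851 to 7778 reads per library. The RNA was that of wild-type 4T1 cells, an established mouse mammary carcinoma line that metastasizes to the lungs and models triple negative disease. Cells grown in DMEM with 10% serum were stained with 20 nM MitoSpy Red, a dye that mitochondria take up according to their membrane potential (MMP), and the top 5% and bottom 5% in staining were sorted. High MMP cells (n = 2) and low MMP cells (n = 2) thus carried the same genotype and the same dye and differed in the gate. Both groups are gates on the same line rather than separate lines, and medium MMP or unsorted cells were not analysed here. In bulk RNA of this kind, a different number of cells expressing a gene and a different amount of its RNA per cell cannot be told apart.

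The complex marks proteins for destruction in mitosis and in G1. In mitosis it works with CDC20, which the spindle checkpoint holds back until all chromosomes are attached. Main targets of the complex after that point are securin and cyclin B. Securin holds the protease separase in check, and separase cuts the cohesin rings that hold sister chromatids together. From late mitosis into G1 the complex works with CDH1, the product of *Fzr1*, which clears the remaining mitotic proteins and is held back at the G1 to S transition by EMI1, the product of *Fbxo5*. UBE2C attaches the first ubiquitins and UBE2S extends the chain.

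The libraries held 22591970 to 26395015 reads. All 6 epithelial markers were in the table, with a summed level of 65174 and 47592 in high MMP and 54730 and 62416 in low MMP cells (*Krt8* at 13146 to 19554 normalized reads per library, *Krt18* at 13139 to 19276). *Krt8*, *Krt18*, *Krt7* and *Epcam* overlapped between the groups. The E-cadherin gene *Cdh1* (3903 and 4726 in high, 5421 and 5426 in low MMP cells) was lower without overlap. This gene is not that of the coactivator CDH1, which is *Fzr1*. *Krt14* (1368 and 1529 in high, 1226 and 1100 in low MMP cells) was higher without overlap. The part of *Cdh1* and *Krt14* in the results was not tested. Of 5 leukocyte markers 3 were in the table, and their summed level was 60.6 and 143 in high MMP and 151 and 96.5 in low MMP cells. Nearly all of it was *Cd68* (79 to 171 reads per library), with *Ptprc* at 0 to 2 and *Cd79a* at 0 to 4 reads. Of 5 endothelial and stromal markers 4 were in the table. Their summed level was 331 and 374 in high MMP and 548 and 605 in low MMP cells, nearly all of it *Pdgfra*. This gene was lower in high MMP cells without overlap (319 and 363 in high, 536 and 589 in low). Its log2 difference was -0.72 (limma adjusted p = 0.472, DESeq2 adjusted p = 0.0412), and its part in the results was not tested. High MMP replicate 1 stood apart in its share of mitochondrially encoded protein-coding reads, 1.27% against 2.02% to 2.24% in the other 3 libraries. Without it, the differences of *Ube2c* and *Fzr1* described below were 1.27 and 0.93, against 1.30 and 0.86 with it.

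*Ube2c* had the largest difference of the 10 genes, at 2.45 times the low MMP level in high MMP cells, followed by *Fzr1* at 1.80 times, *Espl1* at 1.38 times and *Fbxo5* at 1.32 times. *Ube2s*, *Cdc20* and *Cdc27* were 1.07 to 1.10 times as high, and *Pttg1*, *Cdc16* and *Anapc1* were at 0.96 to 1.00 times. In 7 of the 10 genes both high MMP samples lay above both low MMP samples, where 13.5% of all genes did so, and in 0 of the 10 both lay below, where 24.5% of all genes did so. The median log2 difference was 0.13 over the 10 genes and -0.04 over all genes. Each difference is the high MMP mean less the low MMP mean of log2(value + 1). A value is a gene's reads after scaling each library to 20000000, and levels below are such normalized reads unless reads are named.

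No member passed an adjusted p of 0.05 in limma (0 of 10, 0% of all 20197 genes, of which 2011 had an unadjusted p under 0.05). The smallest limma adjusted p over all genes was 0.472, so genes given this value are tied and not ranked by it. That value depended on the filter. It was 0.0511 with only genes whose mean level was at least 1, and 0.0676 with a mean of at least 10. At an unadjusted p under 0.05 there were 3 members, *Ube2c*, *Fzr1* and *Espl1*, all higher in high MMP cells, against 3.95% of all genes higher and 6.01% lower. edgeR's quasi-likelihood test on the recovered reads, with no block, called 0 of 10 and 0% of all genes as well. It gave an unadjusted p under 0.05 to 4 members, those 3 and *Fbxo5*, all higher, against 3.22% of all genes higher. DESeq2 called *Ube2c* and *Fzr1*, both higher, where it called 0.663% of 12365 genes higher and 0.291% lower. The study describes the 2 samples of a group as independent experiments. With the replicate number as a block, limma called 0 genes. edgeR with that block called 63 of all 20197 genes higher and 43 lower, among the higher ones *Ube2c* and *Fzr1*. Whether the number pairs the samples is not stated.

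**Figure D1:**
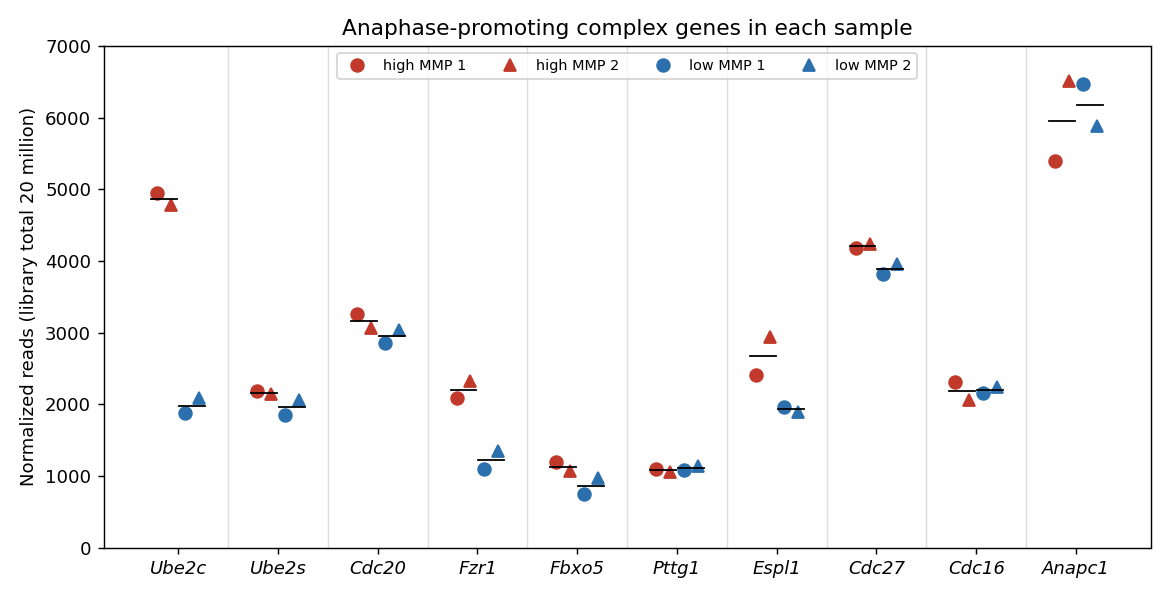
Normalized reads of the 10 genes (vertical axis, each library scaled to 20000000) in the 2 high MMP samples (red) and 2 low MMP samples (blue), with circles for replicate 1, triangles for replicate 2 and lines for group means. *Ube2c* and *Fzr1* have both red points far above both blue points, while those of *Pttg1*, *Cdc16* and *Anapc1* are mixed.

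The start regions of these genes are shown because *Ube2c* and *Cdc20* are known to be transcribed mainly in G2 and mitosis. Promoters of such genes often hold a CHR element, bound by MuvB complexes, near the start and CCAAT boxes, bound by NF-Y, upstream of it. In RefSeq windows of GRCm38.p6 from 250 bases before to 50 after the annotated start, which all 10 members had, CHR letters in the form TTTGAA and also in the variant form TTTAAA were searched on both strands, as were CCAAT letters. E2F letters were searched likewise, as TTTCCCGC, TTTGGCGC, TTTCGCGC or TTTGCCGC. CHR letters were in 4 of 10 members (*Ube2c*, *Cdc20*, *Fbxo5* and *Espl1*) and in 27.6% of all 32851 windows. CCAAT letters were in 6 of 10 and in 37.4% of all windows, and E2F letters were in 0 of 10 and in 2.26%. A CHR with at least 2 CCAAT matches was found in *Ube2c*, *Cdc20* and *Fbxo5*, and in 3.13% of all windows. The 160 bases before the start are given for the 3 genes with a CHR before the start, for *Fzr1*, the member with the second-largest difference, and for *Anapc1*, the member with the lowest, with CHR and CCAAT letters of either strand in capitals.

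*Ube2c*, chr2:164769769-164769928, plus strand: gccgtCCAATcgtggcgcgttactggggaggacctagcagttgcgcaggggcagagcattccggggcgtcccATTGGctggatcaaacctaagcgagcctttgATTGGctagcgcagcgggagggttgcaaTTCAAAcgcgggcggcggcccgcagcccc
*Cdc20*, chr4:118437344-118437503, minus strand: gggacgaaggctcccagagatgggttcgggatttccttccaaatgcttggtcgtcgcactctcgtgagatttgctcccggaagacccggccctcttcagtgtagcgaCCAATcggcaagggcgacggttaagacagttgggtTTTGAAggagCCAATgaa
*Espl1*, chr15:102296133-102296292, plus strand: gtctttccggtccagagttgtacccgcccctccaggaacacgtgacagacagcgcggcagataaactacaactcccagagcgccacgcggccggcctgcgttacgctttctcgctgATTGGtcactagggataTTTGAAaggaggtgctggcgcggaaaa
*Fzr1*, chr10:81378371-81378530, minus strand: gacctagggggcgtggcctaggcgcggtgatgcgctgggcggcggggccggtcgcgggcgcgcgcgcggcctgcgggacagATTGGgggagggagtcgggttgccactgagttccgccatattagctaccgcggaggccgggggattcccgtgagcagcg
*Anapc1*, chr2:128687396-128687555, minus strand: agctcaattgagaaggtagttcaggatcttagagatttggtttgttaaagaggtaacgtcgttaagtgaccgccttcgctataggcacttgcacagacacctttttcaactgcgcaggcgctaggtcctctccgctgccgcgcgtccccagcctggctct

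*Ube2c* had its CHR letters at -29 to -24 from the start, where -1 is the last base before it, and 6 CCAAT matches. Of these, the match at -228 to -224 and the overlapping pair at -186 to -182 and -183 to -179 lie outside the stretch shown. *Cdc20* had its CHR letters at -18 to -13 and *Espl1* at -27 to -22, whereas the CHR letters of *Fbxo5* lay after it, at 4 to 9 and 13 to 18. *Fzr1* had 1 CCAAT match and no CHR letters, and *Cdc27* had 2 CCAAT matches. No letters of these motifs were in the windows of *Ube2s*, *Pttg1*, *Cdc16* and *Anapc1*. The windows of *Ube2s* and *Pttg1* lie wholly within the genes as GENCODE places them. The 250 bases end at 4812590 and 43426231, and the genes at 4812590 and 43426251. Bases before those gene ends were not searched, so a lack of matches in *Ube2s* and *Pttg1* is uncertain, as are counts that include them. The 4 genes with CHR letters had differences of 0.10 to 1.30, and *Fzr1* had 0.86 without them. A match is a run of letters and was not tested as a binding site.

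**Figure D2:**
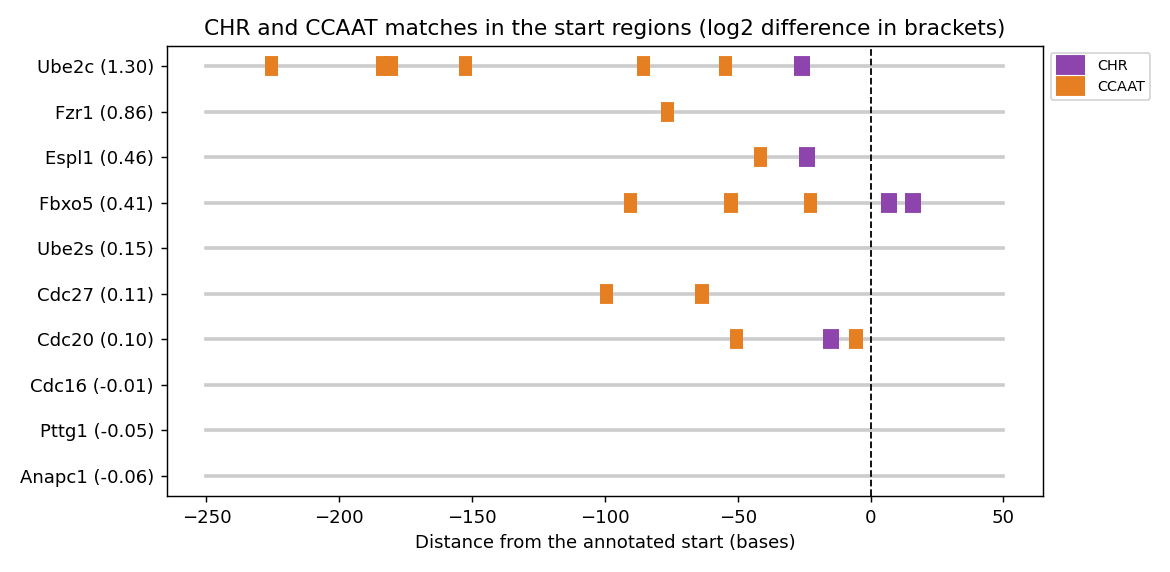
Matches to CHR (purple) and CCAAT (orange) letters in the start region of each gene, by distance from the annotated start in bases, with the genes ordered by their log2 difference (in brackets). *Ube2c* at the top has 6 CCAAT matches and a CHR close to the start, and *Cdc20* has both kinds at a difference of 0.10. The lowest 3 genes have none in their windows, but the windows of *Pttg1* and *Ube2s* lie wholly within the GENCODE genes.

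The E2s had unequal differences. *Ube2c* (ENSMUSG00000001403, GRCm38 chromosome 2, 164769898 to 164778822) had 4946 and 4777 in the high MMP samples and 1879 and 2087 in the low MMP samples. The groups lay far apart, and the replicates of each group close together. The group levels were 4862 ± 119 and 1983 ± 148 (SD, n = 2 each), and they differed by 1.30 in log2 units (SE 0.09, limma adjusted p = 0.472, edgeR adjusted p = 0.484, DESeq2 adjusted p = 1.57e-15). Of the 9999 genes whose mean level reached 100, it ranked 3 from the top in this difference. The 4 possible pairs of a high and a low MMP sample differed by 1.19 to 1.40, and leaving out high MMP replicate 1 gave 1.27. *Ube2s* (ENSMUSG00000060860, chromosome 7, 4794546 to 4812590), whose enzyme elongates the chains that UBE2C starts, had 2185 and 2137 in high and 1855 and 2057 in low MMP cells. The groups did not overlap, but its difference of 0.15 (SE 0.09, limma adjusted p = 0.711) was of the size of its spread, and it was 0.07 without low MMP replicate 1. *Ube2s* shares 183 exon bases on the opposite strand with *Rpl28*, a ribosomal protein gene with 11243 to 15171 reads per library, and *Ube2c* shares 592 with *Tnnc2*, which is not in the table. The kit kept strand, but whether counting used it is not stated, so the level of *Ube2s* is uncertain. Transcripts of *Ube2c* also hold stretches of up to 155 bases that are at least 95% identical to parts of other genes, among them *Wdr1* with 8359 to 13591 reads, and reads from those stretches are uncertain.

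The coactivators were unequal as well. *Fzr1* (ENSMUSG00000020235, chromosome 10, 81366222 to 81378516) had 2081 and 2319 in high and 1095 and 1344 in low MMP cells. Both high MMP samples were above both low ones by more than either group's own spread, with group levels of 2200 ± 168 and 1219 ± 176 (SD, n = 2 each). The log2 difference was 0.86 (SE 0.14, limma adjusted p = 0.472, edgeR adjusted p = 0.567, DESeq2 adjusted p = 3.47e-05), with 0.63 to 1.08 over the 4 sample pairs and rank 29 among those 9999 genes. *Cdc20* (ENSMUSG00000006398, chromosome 4, 118432901 to 118437352) had 3260 and 3069 in high and 2860 and 3038 in low MMP cells. The high MMP replicate 2 and low MMP replicate 2 samples were nearly level, and the difference of 0.10 (SE 0.08, limma adjusted p = 0.795) was 0.06 without high MMP replicate 1 and, likewise, without low MMP replicate 1. A similar transcript, *Gm7856* (95.6% identity over 455 bases), had 2 to 4 reads per library. *Cdc20* shares 53 exon bases on the opposite strand with *Elovl1*, which had 1098 to 1286 reads per library and most in high MMP replicate 1, so its small difference is uncertain in the same way as that of *Ube2s*.

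*Fbxo5* (ENSMUSG00000019773, chromosome 10, 5799160 to 5805600), the inhibitor of the CDH1-bound complex, had 1192 and 1069 in high and 742 and 972 in low MMP cells. The groups did not overlap, but the low MMP samples lay further apart than the gap between the groups. Its difference was 0.41 (SE 0.16, limma adjusted p = 0.535, DESeq2 adjusted p = 0.552), and it was 0.22 without low MMP replicate 1 and 0.61 without low MMP replicate 2.

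Securin and separase, which act as an inhibitor and its target, showed unlike values. *Espl1* (ENSMUSG00000058290, chromosome 15, 102296266 to 102324357), which encodes separase, had 2407 and 2940 in high and 1967 and 1894 in low MMP cells. The high MMP samples were both above the low MMP samples, with the wider spread in the high group. Stretches of its transcripts are at least 95% identical to *Nav1* (131 bases, 2476 to 3444 reads per library) and to *Plscr2* (114 bases, 958 to 2109 reads). The reads of *Plscr2* were highest in high MMP replicate 2 and lowest in low MMP replicate 2, as were those of *Espl1*, and reads from these stretches are uncertain. The difference was 0.46 (SE 0.12, limma adjusted p = 0.472, DESeq2 adjusted p = 0.112), with 0.29 to 0.63 over the 4 sample pairs and 0.61 without high MMP replicate 1. *Pttg1* (ENSMUSG00000020415, chromosome 11, 43420250 to 43426251), which encodes securin, had 1104 and 1049 in high and 1089 and 1143 in low MMP cells. These groups overlapped, with a difference of -0.05 (SE 0.08, limma adjusted p = 0.921).

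The 3 core subunits differed by -0.06 to 0.11. *Cdc27* (ENSMUSG00000020687, chromosome 11, 104502745 to 104550620), a tetratricopeptide repeat subunit, had 4180 and 4235 in high and 3817 and 3955 in low MMP cells. Its groups did not overlap, and the difference was 0.11 (SE 0.08, limma adjusted p = 0.746). *Cdc16* (ENSMUSG00000038416, chromosome 8, 13757676 to 13781938), another repeat subunit, had 2314 and 2064 in high and 2156 and 2241 in low MMP cells. The low MMP samples lay between the high ones, with a difference of -0.01 (SE 0.09, limma adjusted p = 0.994) whose sign depended on the scaling (0.03 after median-of-ratios rescaling). *Anapc1* (ENSMUSG00000014355, chromosome 2, 128610104 to 128687391), the largest scaffold subunit, had 5389 and 6509 in high and 6464 and 5884 in low MMP cells. Its groups overlapped too, with a difference of -0.06 (SE 0.13, limma adjusted p = 0.955).

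**Figure D3:**
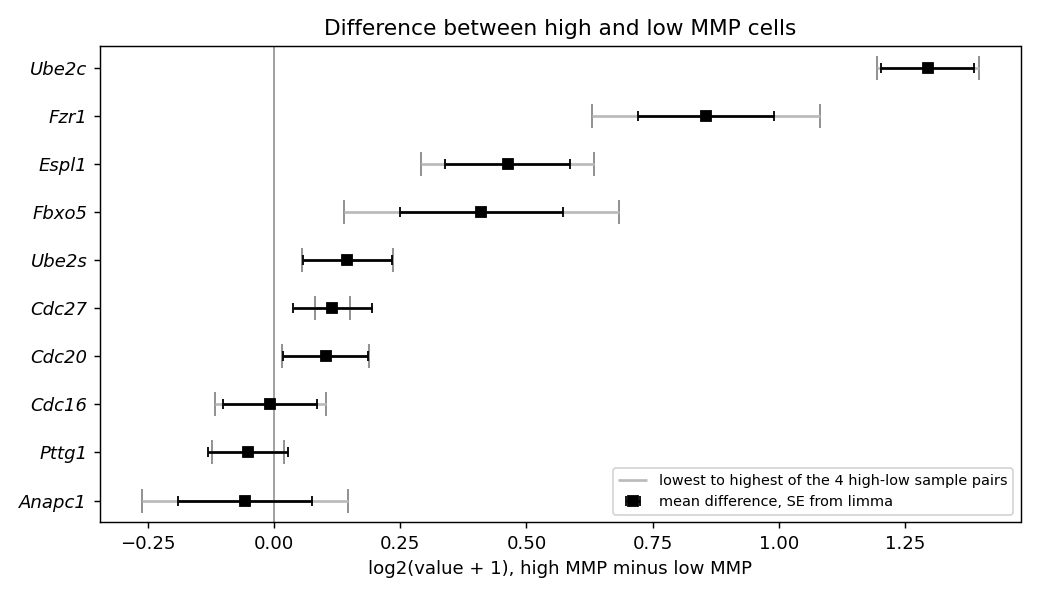
Difference between high and low MMP cells for each of the 10 genes (horizontal axis, log2(value + 1)). Squares are mean differences with the SE from limma (n = 2 per group), and grey bars run from the lowest to the highest of the 4 high-low sample pairs. *Ube2c* (1.30) and *Fzr1* (0.86) lie to the right of the other 8 genes, and the grey bars of *Cdc16*, *Pttg1* and *Anapc1* cross 0.

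Members that act as pairs were next compared within each library, since a ratio of 2 genes in the same library does not depend on how libraries are scaled. Its size depends on transcript length, so it is read only between samples. The *Ube2c* to *Ube2s* ratio was 2.26 and 2.24 in high MMP cells and 1.01 and 1.01 in low MMP cells. It had the smallest SDs of the 4 ratios formed, at 0.0205 and 0.00137, but an SD of 2 values is itself uncertain. The closeness of the replicates is therefore not read as a result, and the level of *Ube2s* is uncertain, as said above. The *Cdc20* to *Fzr1* ratio was 1.57 and 1.32 in high and 2.61 and 2.26 in low MMP cells, so reads of the mitotic coactivator outnumbered those of the G1 coactivator less in high MMP cells. The *Pttg1* to *Espl1* ratio was 0.459 and 0.357 in high and 0.554 and 0.603 in low MMP cells. The *Fzr1* to *Fbxo5* ratio was 1.75 and 2.17 in high and 1.48 and 1.38 in low MMP cells. The groups did not overlap in any of the 4 ratios. An exact two-sided permutation test gave p = 0.333 for each, which is the smallest value that 2 samples against 2 allow, and also the value after adjustment over the 4. The first and the last of these ratios were chosen after their values were seen.

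**Figure D4:**
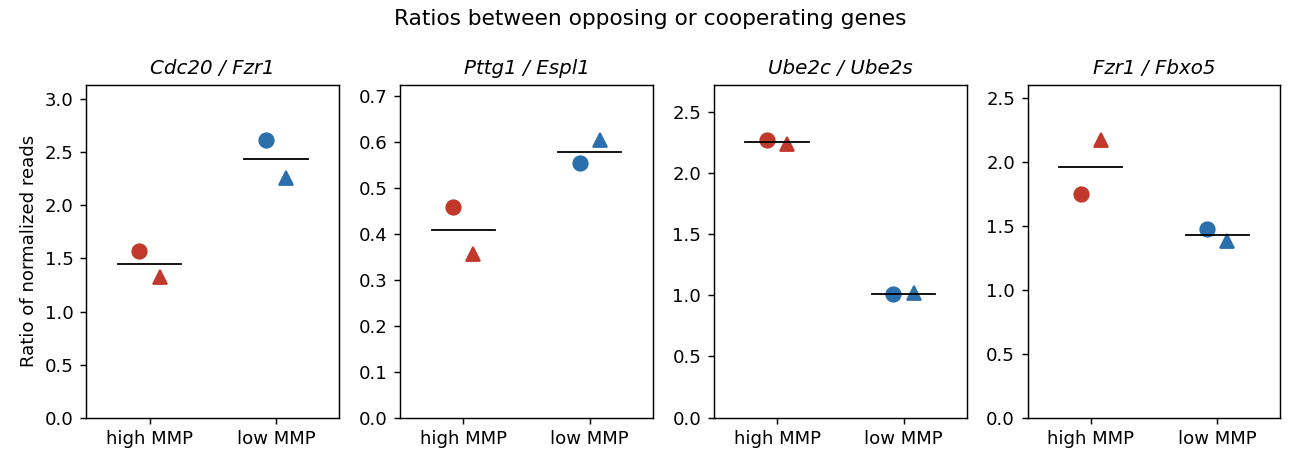
Ratios of normalized reads of *Cdc20* to *Fzr1*, *Pttg1* to *Espl1*, *Ube2c* to *Ube2s* and *Fzr1* to *Fbxo5* (vertical axes from 0) in each high MMP (red) and low MMP (blue) sample, with circles for replicate 1, triangles for replicate 2 and lines for means. The 2 points of each group nearly coincide for *Ube2c* to *Ube2s*, at about 2.25 and 1.01, a closeness that 2 samples cannot establish.

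To set levels of different genes side by side, values were divided by the bases covered by all exons of a gene. *Cdc20* had 1531 to 1745 normalized reads per kilobase over the 4 libraries. *Ube2c* had 1902 and 1837 in high and 723 and 803 in low MMP cells, so it was above *Cdc20* in both high MMP libraries and below it in both low MMP libraries. *Cdc16* (665 to 746) and *Cdc27* (611 to 678) came next, and their ranges overlapped, as did those of *Cdc16* and *Ube2c*. *Pttg1* (525 to 571) lay below *Cdc27* in all libraries. The lower levels of *Fbxo5* (370 to 595), *Ube2s* (361 to 425), *Fzr1* (244 to 517), *Anapc1* (322 to 389) and *Espl1* (217 to 336) overlapped each with the gene before it. *Fbxo5* was above *Ube2s*, and *Espl1* below the other 4, in each library. *Fzr1* was above *Ube2s* and *Anapc1* in both high MMP libraries and below them in both low MMP libraries. The order also rests on the transcript model. Per kilobase of the principal transcript, an alternative chosen after seeing the data, *Ube2c* was first in all 4 libraries (5115 and 4940 in high, 1943 and 2159 in low MMP cells) and *Ube2s* moved up to 1498 to 1765, overlapping *Cdc20* at 1595 to 1818. With either length *Fzr1* stayed below *Cdc20* in each library.

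The rest of the complex was then examined. Of the 11 other core subunits, *Anapc10* and *Cdc23* had both high MMP samples above both low ones and 9 overlapped. Of all genes, 13.5% were higher and 24.5% lower without overlap. The median difference of the 11 was 0.02. *Anapc10*, a subunit of substrate recognition, had the largest difference, 0.38 (SE 0.17, limma adjusted p = 0.587), from 302 and 329 in low to 470 and 357 in high MMP cells. *Cdc26* had the lowest, -0.08 (SE 0.09, limma adjusted p = 0.873). Taking all 14 core subunits, 3 were higher and 0 lower without overlap. An unadjusted limma p under 0.05 was reached by 0 of them, where 3.95% of all genes were higher and 6.01% lower at that p. In either direction 13 differed by less than 0.2, a share that was not counted over all genes. The SD of the difference over the 9999 genes whose mean level reached 100 was 0.21. The 3 UBE2D family E2s, which can also start chains, differed by -0.05 (*Ube2d2a*) to 0.11 (*Ube2d1*).

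Genes that hold the complex back or release it at the spindle checkpoint were higher in high MMP cells without overlap in 6 of 8, and lower in 0 of 8. Of all genes, 13.5% were higher and 24.5% lower without overlap. At an unadjusted limma p under 0.05 there were 2 of the 8, both higher. The shares of all genes at that p were 3.95% higher and 6.01% lower. *Bub3*, a subunit of the inhibitory mitotic checkpoint complex, had 4455 and 4367 in high and 2639 and 2909 in low MMP cells, which differ by 0.67 (SE 0.09, limma adjusted p = 0.472, DESeq2 adjusted p = 0.000368). *Mad1l1* had the lowest difference of the list, with 871 and 1033 in high and 1005 and 899 in low MMP cells. The median of the list was 0.16. The 8 other regulators were split, 2 higher and 4 lower without overlap, with a median of -0.18 and with 2 higher and 3 lower at an unadjusted limma p under 0.05. *Cdk1*, the mitotic kinase that phosphorylates the complex, had a difference of 0.88 (SE 0.15, limma adjusted p = 0.472, DESeq2 adjusted p = 1.39e-05). *Usp44*, a deubiquitinase that acts on CDC20, had -0.50 (SE 0.12, limma adjusted p = 0.472, DESeq2 adjusted p = 0.808). *Fbxo43*, the meiotic relative of *Fbxo5*, is 1 of the 4 lower genes, but it had 0 to 4 reads per library, around the floor of 3 reads, and no fold is given.

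Genes whose proteins the complex destroys lay on both sides of 0. Of 21 mitotic substrates, 18 were higher in high MMP cells without overlap and 1 lower, with a median difference of 0.35, and 14 had an unadjusted limma p under 0.05, all higher. *Nusap1*, a spindle protein, had the largest difference, 1.22 (SE 0.08, limma adjusted p = 0.472, DESeq2 adjusted p = 2.85e-13). *Ccnb2*, a B-type cyclin, was the gene that was lower in high MMP cells, at -0.13 (SE 0.10, limma adjusted p = 0.763). Of 10 substrates of G1 and S phase, 0 were higher without overlap and 6 were lower, with a median of -0.35, and the 6 with an unadjusted limma p under 0.05 were lower. Over all genes, 13.5% were higher and 24.5% lower without overlap. At an unadjusted limma p under 0.05 the shares of all genes were 3.95% higher and 6.01% lower. *Cdc6*, a replication licensing factor, had 1171 and 829 in high and 2507 and 2832 in low MMP cells, which differ by -1.43 (SE 0.19, limma adjusted p = 0.472, DESeq2 adjusted p = 5.83e-10). *Skp2* had the highest value of that list, -0.12 (SE 0.13). All 9 replication genes set beside the members (*Mcm2* to *Mcm7*, *Pcna*, *Ccne1* and *Ccne2*) were lower in high MMP cells without overlap, from -0.33 (*Ccne1*, SE 0.17) to -0.91 (*Ccne2*, SE 0.10), and 4 had an unadjusted limma p under 0.05. Their summed level was 42654 and 32206 in high and 50417 and 50988 in low MMP cells, with a median difference of -0.44, and the part of cycle phase in the members' differences was not tested. DESeq2 called 9 of the mitotic substrates, all higher, and 3 of the G1 and S phase substrates, all lower. It called 0.663% of 12365 genes higher and 0.291% lower. Counts of lists are not independent, since 4 genes are in more than 1 of these lists (*Plk1*, *Bub1*, *Sgo1* and *Cdca5*).

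Cohesin, the target of separase, and its regulators were examined next. Of 10 genes, 3 were higher without overlap and 7 overlapped, with a median of 0.03 and 2 at an unadjusted limma p under 0.05, both higher. Of all genes, 13.5% were higher without overlap and 3.95% were higher at that p. *Sgo1*, which protects centromeric cohesin, had the largest difference, 0.50 (SE 0.08, limma adjusted p = 0.472, DESeq2 adjusted p = 0.0412). *Pds5a* had the lowest, -0.13 (SE 0.16, limma adjusted p = 0.865). *Rad21*, the subunit that separase cuts, had 11532 and 11304 in high and 11376 and 11387 in low MMP cells, and was chosen after its values were seen.

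**Figure D5:**
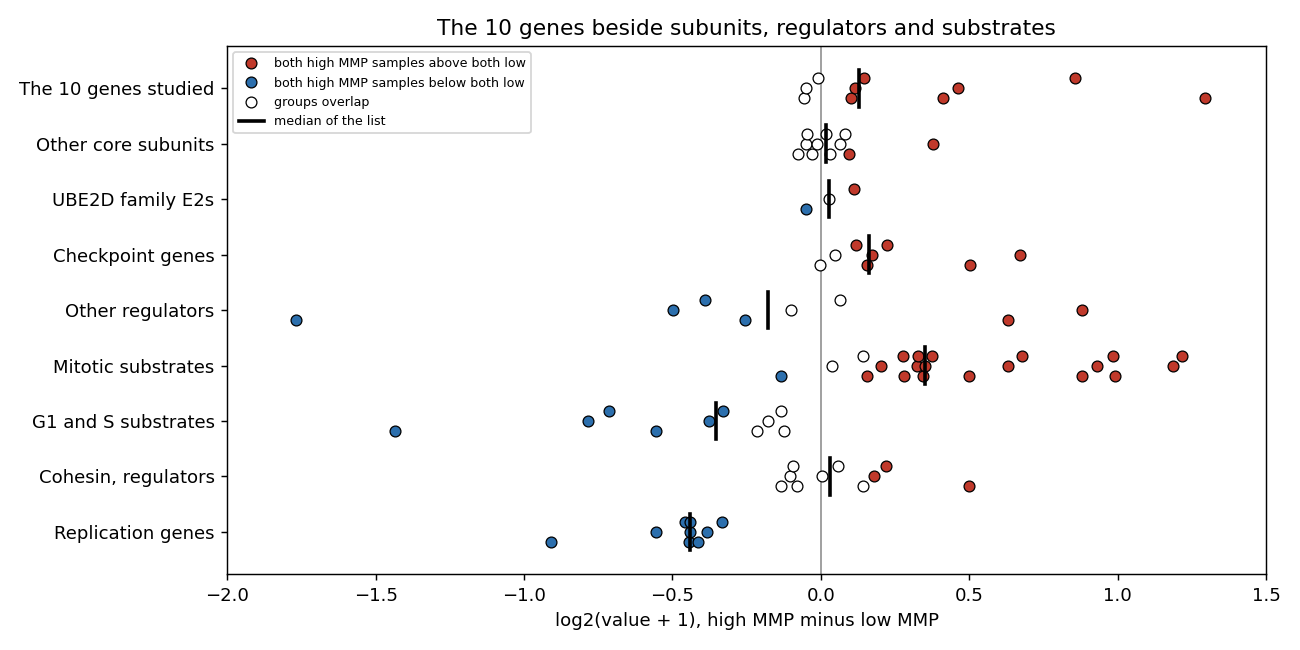
Difference between high and low MMP cells (horizontal axis, log2(value + 1)) for the 10 genes and for each list of related genes, 1 point per gene. Filled points mark genes whose groups do not overlap (red higher, blue lower in high MMP cells), open points those that overlap, and bars list medians. Mitotic substrates lie mainly to the right (median 0.35), G1 and S phase substrates (-0.35) and replication genes (-0.44) to the left, and core subunits near 0.

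Last, genes with the most similar profile over the 4 samples were sought among the other 9998 genes whose mean level reached 100, by the root mean square distance between log2 profiles centred on their means. The nearest to *Ube2c* were *Nusap1* (distance 0.04), *Kpna2* (0.06) and *Depdc1b* (0.09). The nearest to *Fzr1* were *Cdca2* (0.07), *Aurkb* (0.07) and *Ccnf* (0.08), and the nearest to *Cdc20* were *Hibadh*, *Leprot* and *Tbl3* (0.0044 to 0.0074). Small distances are easily reached by genes with small differences, as those 3 genes differed by 0.10 to 0.11, and 4 samples leave many genes close to each other.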

How the data were processed

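RNA-sequencing of 2 high MMP and 2 low MMP samples of 4T1 cells was analysed. The authors mapped reads to transcripts of GRCm38/mm10 and quantified genes with STAR, scaled to library size and kept genes found in at least 2 of the 4 samples, and HTSeq is also listed in the submitters' processing notes. Versions and the strand setting are not given in the sources used here. The deposited values are a normalized signal per gene that sums to 20000000 per library. In each column 100% of values were whole multiples of 1 step (tolerance 0.01), which gave reads and depth. Symbols, positions and lengths came from GENCODE M21 (GRCm38), which named 19993 of 20197 identifiers, and start regions from RefSeq (GRCm38.p6).

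Groups and replicate numbers were taken from sample titles. log2(value + 1) was tested with limma 3.58.1 (trend, no block, no further filter) in R 4.3.3, with Benjamini-Hochberg adjustment over all genes. edgeR 4.0.16 (quasi-likelihood) and DESeq2 1.42.0 were run on the recovered reads as alternatives, beside other pseudocounts, filters, scalings, a replicate block and leaving out each sample. Scripts were tested on simulated data for errors of sign and scale. The 10 members and all lists were chosen with earlier results of these data known. Of each list the text names the genes with the highest and lowest difference at a mean of at least 10, and says where a gene was chosen otherwise. Protein sequences were not used here.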

Additional observations from a re-analysis of the deposited data

How the results depend on the processing

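The difference of each of the 10 genes was recomputed under 17 alternatives. Of these 170 values, 152 kept their direction and stayed on the same side of an adjusted p of 0.05, 8 kept their direction and passed it, and 10 changed sign. The sign changes concerned *Cdc16* (main value -0.01), at 0.033 with median-of-ratios rescaling, 0.0092 with quantile normalization, 0.032 in edgeR with no block, 0.030 in edgeR with the replicate block and also with the crossed block, and 0.036 in DESeq2. When 1 sample at a time was left out, *Cdc16* ranged from -0.090 to 0.074, positive without high MMP replicate 2 (0.074) or low MMP replicate 2 (0.020), and *Anapc1* from -0.19 to 0.078, positive without high MMP replicate 1 (0.078) or low MMP replicate 1 (0.0095). *Ube2c* ranged from 1.22 to 1.37 and *Fzr1* from 0.71 to 1.00 over their alternatives. With no sample left out, their limma adjusted p ranged from 0.0511 to 0.798 and from 0.141 to 0.798. For both genes the lowest came with only genes of a mean of at least 1, and the highest with the replicate block.

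The replicate numbers are not said to mark the experiment and were not taken to pair the samples. In other assays, the study compared sorted high and low MMP cells by paired tests. Across 12902 genes, libraries with the same number deviated in opposite directions (correlation -0.42). With 2 samples per group this is a single contrast set against another, so it cannot show whether the numbers pair the samples. limma with the replicate block called 0 genes and 0 members, while edgeR with the replicate block called 106 genes, among them 2 members, *Ube2c* (adjusted p = 2.05e-07) and *Fzr1* (adjusted p = 0.00174). DESeq2 with no block called 118 genes, again with *Ube2c* and *Fzr1*. A block with crossed numbers, chosen after seeing the data, called 733 genes and 4 members in edgeR and 0 of each in limma. The cause of these different counts was not tested. The other alternatives, in which limma or edgeR had no block, called 0 genes, also with each sample left out in turn, with 897 to 3353 genes at an unadjusted p under 0.05. Where 1 sample was left out, the lone sample of its group was assumed to vary like the other group. The groups did not vary alike. Over those 12902 genes the log2 difference between replicates had an SD of 0.40 in high and 0.29 in low MMP cells. Counts at an unadjusted p with a sample left out are therefore uncertain. Each member had at least 851 reads in each library, while *Fbxo43*, with 0 to 4, could not be compared.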
